A study of Mus musculus with 4 samples.

Results

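Nuclear receptors other than the steroid hormone receptors were examined for chromatin loops in mouse granulosa cells. The set is defined by receptor family and holds 33 genes: the REV-ERB, LXR, FXR, PXR and CAR, TR2 and TR4, TLX and PNR, COUP-TF, RAR, ROR, RXR, PPAR, thyroid hormone, vitamin D, HNF4 and ERR receptors. A gene was counted at a loop when either of its annotated ends lay within 2.5 kb of a loop anchor. By that rule 18 of the 33 receptors had a loop, among 9139 of 21631 protein-coding genes.

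Nuclear receptors are transcription factors with a zinc-finger DNA-binding domain and, in most members, a pocket for a small lipophilic ligand. Many of the receptors considered here bind DNA as partners of a retinoid X receptor (RXR), on paired copies of a short hexamer, and recruit corepressor or coactivator complexes according to ligand. In the ovary they are known for sensing retinoids, fatty acids, oxysterols and thyroid hormone, and in the rat the messenger RNA of PPARγ falls in granulosa cells after the surge of luteinizing hormone.

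The libraries were made by Micro-C, which cuts crosslinked chromatin with micrococcal nuclease and joins the ends that lie together in space. The hCG group came from mice 21 days old injected with 5 IU of equine chorionic gonadotropin (eCG, labelled PMSG), which drives follicle growth, and then 5 IU of human chorionic gonadotropin (hCG), a stand-in for the ovulatory hormone surge, 6 h before collection. The PMSG group had received the same eCG dose and was collected at 0 h post-hCG. Each group had 2 libraries of cells released by puncturing ovaries, with 2 to 3 technical replicates behind each. Whether different mice stand behind the libraries is not stated, and their spread may include technical error.

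The lists held 7664 and 7935 loops in the hCG libraries, against 8305 and 6533 in the PMSG libraries. Contacts at these loops added up to 311016 and 349717 in hCG, against 393852 and 272470 in PMSG. PMSG replicate 2 had both the shortest list and the fewest contacts. Ends of the granulosa marker genes were at loops for 8 of 9 genes (Fshr, Foxl2, Amh, Inha, Inhba, Esr2, Nr5a2 and Hsd17b1, not Cyp19a1), with 15 and 13 calls in hCG and 11 and 5 in PMSG. Markers of theca and stroma had loops for 5 of 7 genes, with 12 and 14 calls in hCG and 11 and 8 in PMSG. Endothelial markers had loops for 1 of 5 genes, leukocyte markers for 2 of 5 and oocyte markers for 3 of 5. Of all protein-coding genes, 42.2% had a loop. Calls at any gene end numbered 4536 and 4597 in hCG and 4749 and 3608 in PMSG, where the groups overlap. The marker lists are short, and their differences were not tested. A loop is no measure of expression, and in a bulk library fewer cells with a contact and fewer contacts per cell cannot be told apart.

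Receptor genes had loop calls in every library. The 18 receptors had 18 and 16 calls in the hCG libraries, against 16 and 9 in the PMSG libraries. Per 1000 loops of the same list this was 2.35 and 2.02 in hCG and 1.93 and 1.38 in PMSG, with means of 2.18 ± 0.235 in hCG and 1.65 ± 0.388 in PMSG (SD, n = 2 each). The groups did not overlap, but the share of all calls with any gene end at an anchor did not overlap either, at 59.2% and 57.9% in hCG against 57.2% and 55.2% in PMSG. Calls at receptors were found for 12 and 13 members in hCG (36.4% and 39.4%) and for 11 and 9 members in PMSG (33.3% and 27.3%). Of all protein-coding genes, 26.6% and 27.0% had a call in hCG and 27.2% and 21.7% in PMSG, where the groups overlap. With 2 libraries against 2, an exact permutation test cannot go below p = 0.33, so differences of such counts carry no test.

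**Figure D1:**
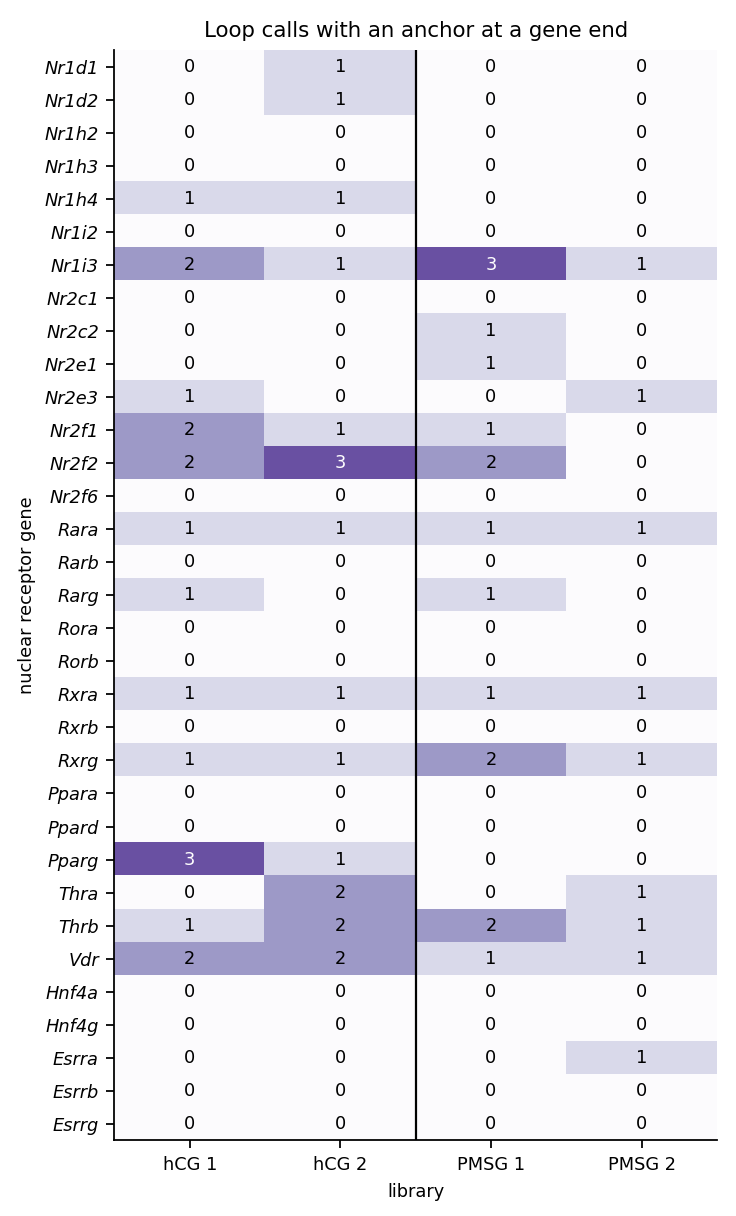
Number of loop calls with an anchor within 2.5 kb of a gene end for each of the 33 receptors (rows) in each library (columns, hCG left of PMSG; darker cells hold more calls). Pparg has 3 and 1 calls in the hCG libraries and 0 in both PMSG libraries, while Rara and Rxra have 1 call in every library.

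Loops of different lists were taken as 1 distinct loop when both anchor midpoints lay within 20 kb. The receptors had 35 distinct loops: 4 were in both hCG lists and in neither PMSG list (hCG-only), 1 showed the reverse (PMSG-only), 8 were in all 4 lists, and the other 22 fell outside these classes. Counted as genes, 3 of the 18 looped receptors were at hCG-only loops (16.7%), against 8.31% of all genes with a loop. At PMSG-only loops there was 1 of 18 (5.56%), against 5.46%. At loops of all 4 libraries there were 9 of 18, against 41.8% of all genes with a loop. The share of receptors with any loop was 54.5%, against 42.2% of all protein-coding genes. A count of 3 genes is small, and these shares are given beside each other without a test.

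**Figure D2:**
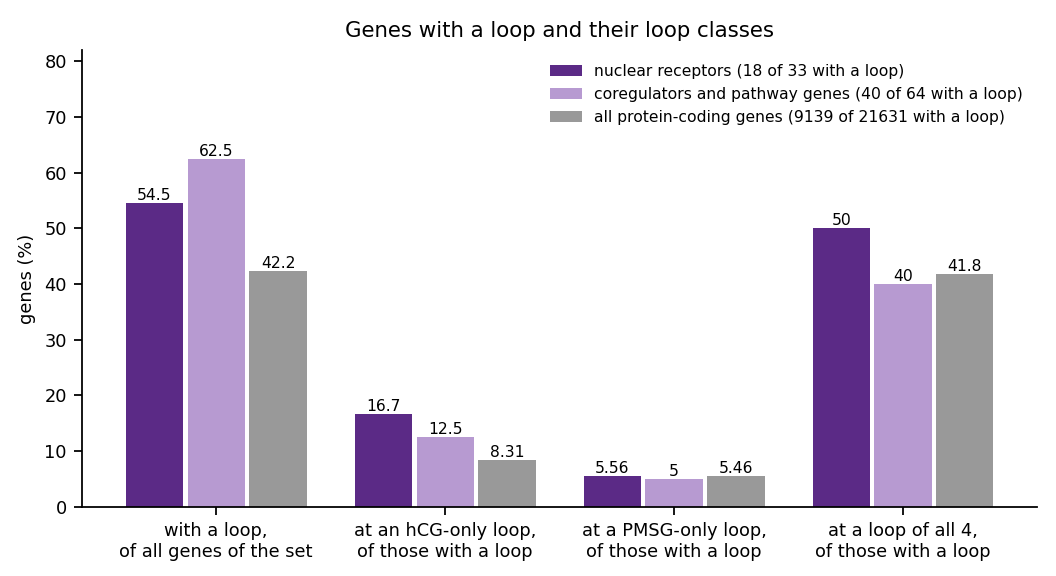
Percent of genes with a loop, and of the looped genes the percent at an hCG-only loop, a PMSG-only loop and a loop of all 4 libraries, for the nuclear receptors, for 64 coregulator and pathway genes together, and for all protein-coding genes. The receptors stand at 16.7% for hCG-only loops, against 8.31% of all genes, and at 5.56% for PMSG-only loops, against 5.46%.

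Many loops of receptors stood in 1 list. Of the 35 distinct loops, 20 were called in 1 library (57.1%), against 38.5% of the 8368 distinct loops at any gene. These comprised 6 in hCG replicate 1 and 4 in hCG replicate 2, and 8 in PMSG replicate 1 and 2 in PMSG replicate 2. The low number in PMSG replicate 2 went with its short list. Another 6 loops were in 2 libraries and 1 was in 3. Calls in neighbouring 25 kb bins lie 25 kb apart, above the match distance of 20 kb, so they counted as separate loops. Single-list calls of Thrb, Nr2e3 and Nr2f2 stood in this way next to calls of another list. Matching within 50 kb left 29 distinct loops at receptors. The part of bin size in the share of single-list loops was not tested. Loops at receptors joined 2 gene ends in 17 of 35 cases (48.6%), against 33.1% of loops at any gene.

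Nr1h4 encodes FXR, the bile acid receptor. Its hCG-only loop joined the outermost start of the gene to a point near its other end, chr10:89460001-89470000 with chr10:89530001-89540000 (mm10), a span of 70 kb. Contacts numbered 38 and 48 in the hCG libraries, where the local surroundings (the donut around the pixel) predicted 11.6 and 13.3. Observed over expected was thus 3.27 (95% Poisson interval 2.31 to 4.48) and 3.61 (2.66 to 4.78). Such intervals cover counting error only. The same inner anchor was also the end of a longer loop of 165 to 170 kb in all 4 libraries, which ended upstream of the gene at observed over expected ratios of 8.81 and 10.8 in hCG and 8.22 and 8.01 in PMSG. In the PMSG lists this longer loop was the nearest call, 92.5 and 97.5 kb away. The RefSeq promoter of Nr1h4 starts at 89506658, between the anchors of the hCG-only loop, so that loop was at the outermost boundary of the gene model on its start side and not at the listed start site.

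Pparg encodes PPARγ, the fatty acid sensor that partners RXR and drives lipid storage genes. Its start had calls in each hCG list and none in the PMSG lists. The hCG-only loop spanned 175 kb, from chr6:115350001-115375000 across the gene to chr6:115525001-115550000. It had 89 and 113 contacts in hCG against 40.4 and 49.5 expected, or ratios of 2.20 (1.77 to 2.71) and 2.28 (1.88 to 2.74). In hCG replicate 1 the Pparg start had 2 further loops of 140 and 70 kb to the upstream side, with ratios of 3.91 and 2.49. All anchors at the start held the first and second RefSeq start sites of Pparg (115361144 and 115362349), and none held the third, at 115422066.

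A separate loop of 50 kb inside Pparg, chr6:115380001-115390000 with chr6:115430001-115440000, was in every list. It had 54 and 60 contacts in hCG and 61 and 51 in PMSG, with observed over expected ratios of 2.55 and 2.69 in hCG and 2.16 and 2.39 in PMSG. The body of Pparg was therefore looped in both groups, and the calls at its start were in the hCG lists. The highest FDR of the 175 kb loop in hCG replicate 1 was 0.0192, and the loop left the hCG-only class when every FDR had to be at most 0.01 or when the lists were made equally long.

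The sequences around these Pparg start sites are shown because the hCG-only anchor covers them. Each runs 5′ to 3′ from 250 bases before to 50 after the start site (RefSeq, GRCm38.p6), with the receptor recognition hexamer AGGTCA, or TGACCT on the other strand, in capitals.
Pparg promoter 1 (chr6:115360894-115361193, plus strand): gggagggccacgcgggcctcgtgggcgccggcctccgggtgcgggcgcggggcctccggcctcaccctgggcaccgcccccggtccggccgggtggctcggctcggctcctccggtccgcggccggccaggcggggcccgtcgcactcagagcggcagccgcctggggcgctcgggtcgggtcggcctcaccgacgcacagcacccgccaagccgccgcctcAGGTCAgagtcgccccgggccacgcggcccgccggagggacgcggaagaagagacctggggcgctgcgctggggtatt
Pparg promoter 2 (chr6:115362099-115362398, plus strand): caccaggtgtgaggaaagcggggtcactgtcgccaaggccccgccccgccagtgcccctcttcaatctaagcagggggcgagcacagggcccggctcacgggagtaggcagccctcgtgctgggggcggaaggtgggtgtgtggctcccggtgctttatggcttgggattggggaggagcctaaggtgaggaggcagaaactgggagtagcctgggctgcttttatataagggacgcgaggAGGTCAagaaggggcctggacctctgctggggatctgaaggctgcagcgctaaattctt
Each of them holds the hexamer 1 time, after the midpoint of the window. Promoter 1 is the richer in G and C, at 80.3% against 62.7% in promoter 2, and promoter 2 also holds the letters TATAAA or their reverse complement.

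Nr2f2 encodes COUP-TFII, an orphan receptor better known from theca and stroma than from granulosa cells, and it had the most loops of all receptors, with 6 distinct ones. Of these 2 were hCG-only. The long one spanned 875 kb, chr7:69475001-69500000 with chr7:70350001-70375000, at 38 and 38 contacts in hCG, where 8.70 and 11.3 were expected (ratios of 4.37 and 3.36). The PMSG lists held a loop from nearly the same distant anchor, 850 and 840 kb long, that ended at chr7:70330001-70340000, with ratios of 6.47 and 8.38. That anchor lies 11.9 kb from the 3′ end of Nr2f2, and the loop lies 27.5 kb from the hCG call by midpoints. The PMSG call was in 10 kb bins and the hCG call in 25 kb bins, which place an anchor no more finely than their width. With matching within 50 kb these calls became 1 loop of all 4 libraries, and the short loop described next remained as the hCG-only loop of Nr2f2.

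The short hCG-only loop at Nr2f2 spanned 45 and 40 kb, from chr7:70325001-70330000 past the gene to its start. It had 20 contacts in hCG replicate 1 against 3.35 expected (ratio 5.97, interval 3.65 to 9.23) and 17 in hCG replicate 2 against 4.34 (3.91, 2.28 to 6.27). The nearest PMSG calls were 515 and 832.5 kb away. The start site itself, 70366746, was at the anchor in hCG replicate 2 (70365001-70370000), whereas the anchor of hCG replicate 1 began at 70370001, more than 2.5 kb upstream. These anchors do not overlap, and the highest FDR in hCG replicate 2 was 0.0107. The short loop thus left the hCG-only class with overlapping anchors, with every FDR at most 0.01, or with the gene end required in 2 libraries. In those settings the 875 kb loop kept Nr2f2 in the class. The remaining Nr2f2 loops were each in 1 list: 1020 kb in hCG replicate 1, 1375 kb in hCG replicate 2, and 525 and 1350 kb in PMSG replicate 1. The calls of 1375 and 1350 kb had the same far anchor, chr7:68975001-69000000. They lay 25 kb apart, since their near anchors were neighbouring 25 kb bins. The start site of Nr2f2 was within reach of an anchor 2 and 3 times in the hCG libraries and 0 times in both PMSG libraries. PMSG replicate 1 had 2 calls at the 3′ end, and PMSG replicate 2 had no call at either end. The 2 calls of PMSG replicate 1 were in the 25 kb bin next to the one that held the start in hCG. A difference of 1 bin thus enters this contrast.

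The Nr2f2 promoter is shown for comparison, since it lies in an hCG-only anchor and holds no copy of the hexamer.
Nr2f2 promoter (chr7:70366697-70366996, minus strand): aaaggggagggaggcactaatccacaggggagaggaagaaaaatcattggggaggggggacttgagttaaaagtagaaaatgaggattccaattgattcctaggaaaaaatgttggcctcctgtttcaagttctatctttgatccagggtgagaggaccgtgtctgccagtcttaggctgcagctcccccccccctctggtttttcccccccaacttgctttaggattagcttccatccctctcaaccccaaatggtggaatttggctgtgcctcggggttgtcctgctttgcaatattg
At 49.7% its share of G and C is below that of both Pparg promoters.

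Thrb encodes the thyroid hormone receptor β, and it was the receptor with a PMSG-only loop. That loop of 250 kb joined the start of the gene to its own body, chr14:17650001-17675000 with chr14:17900001-17925000. Contacts numbered 125 and 89 in the PMSG libraries against 49.7 and 34.2 expected, or ratios of 2.51 (2.09 to 3.00) and 2.60 (2.09 to 3.20). In the hCG lists no call came closer than 250 kb to it. The start of Thrb was looped in hCG too, by calls to other places: to 525 kb downstream in hCG replicate 1, to 550 kb downstream, at the end of Nr1d2, in hCG replicate 2, and to 250 kb upstream in hCG replicate 2. In PMSG replicate 1 it also reached 500 kb downstream. The calls of 500 to 550 kb lay 25 to 50 kb from each other, above the match distance, and with matching within 50 kb Thrb and Nr1d2 were at a loop of all 4 libraries while Thrb kept its PMSG-only loop. The PMSG-only loop was lost with lists of equal length.

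The Thrb start is given as the sequence at the PMSG-only anchor.
Thrb promoter 1 (chr14:17660710-17661009, plus strand): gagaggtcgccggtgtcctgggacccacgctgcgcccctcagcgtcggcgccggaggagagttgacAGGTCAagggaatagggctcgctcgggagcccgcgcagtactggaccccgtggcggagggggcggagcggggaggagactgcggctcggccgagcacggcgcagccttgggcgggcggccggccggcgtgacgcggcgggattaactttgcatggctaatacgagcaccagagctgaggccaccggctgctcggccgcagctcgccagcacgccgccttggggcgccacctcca
It holds the hexamer 1 time, before the start site, and 72.7% of its bases are G or C. The second Thrb start site in the table, 17981644, was at no anchor.

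**Figure D3:**
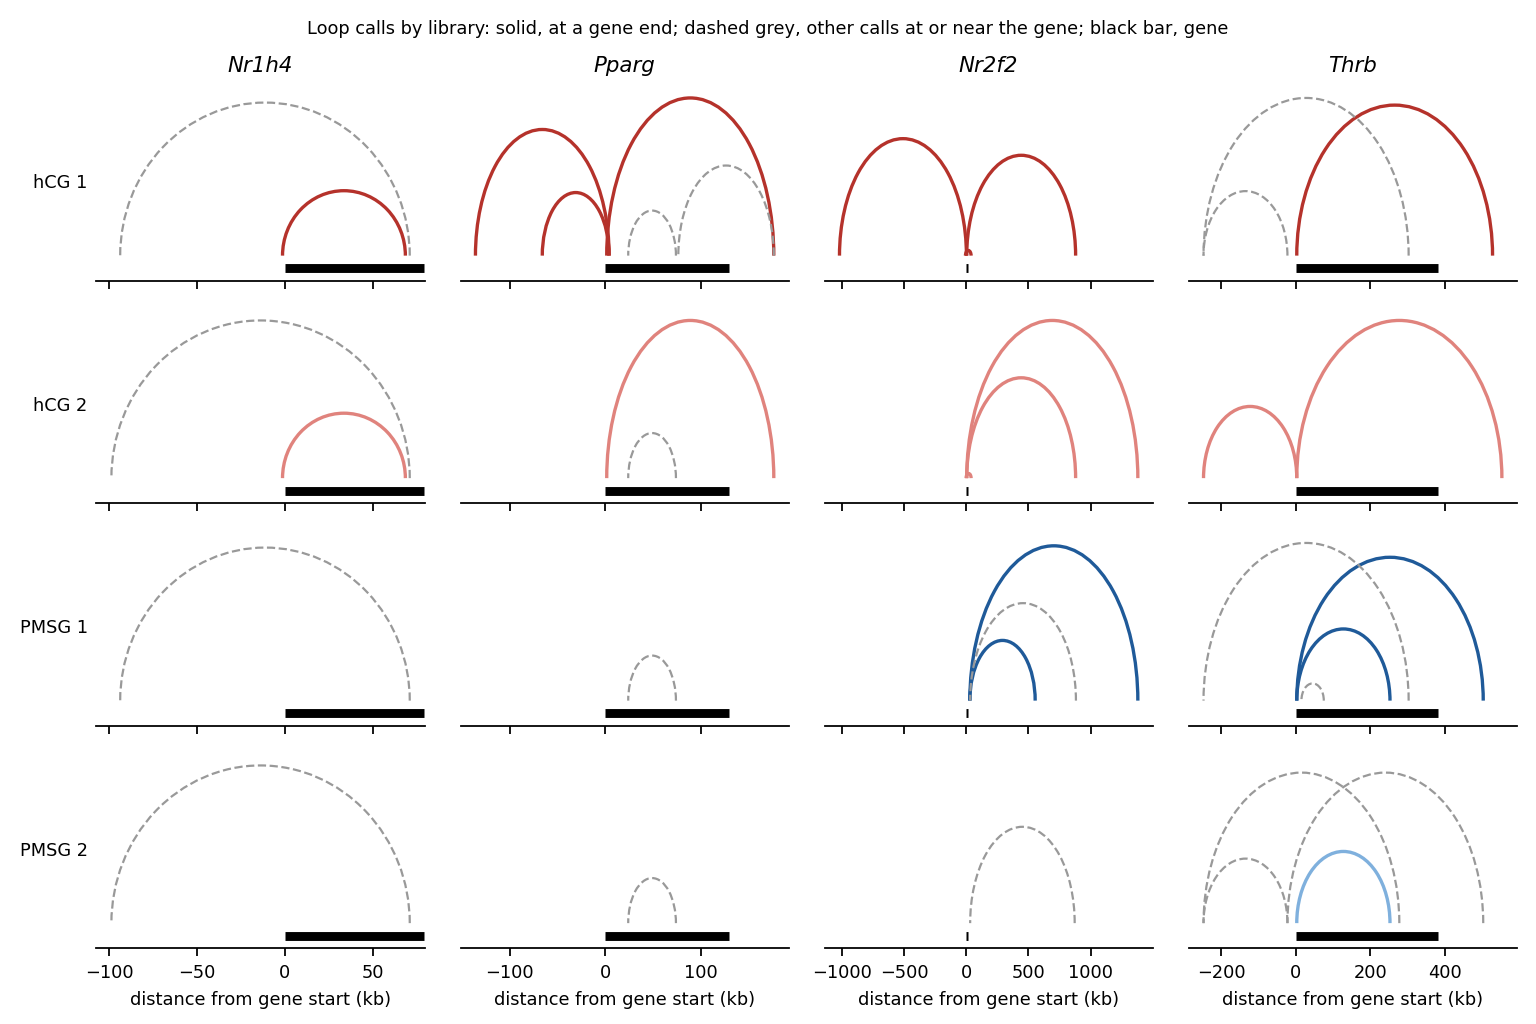
Loop calls around Nr1h4, Pparg, Nr2f2 and Thrb, by distance from the gene start in kb along the gene's own direction, with 1 row per library (hCG above PMSG). Arcs join anchor midpoints; coloured solid arcs belong to loops at a gene end, dashed grey arcs are other calls with an anchor in the gene or within 15 kb of it, and the black bar is the gene. Pparg has its 50 kb inner arc in every row and arcs from its start in the hCG rows, and Thrb has its 250 kb inner arc in the PMSG rows.

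The hexamer was found in 9 of the 49 listed promoters of the receptors, or 18.4%, against 14.6% of the promoters of all protein-coding genes. All 9 belonged to receptors with a loop, which have 27 promoters, while the 22 promoters of receptors without one held none. Across all genes the shares were 14.0% with a loop and 15.1% without. Only 4 of the 9 promoters had their start within 2.5 kb of an anchor: both Pparg promoters above, Thrb promoter 1 and the fourth promoter of Rara. The GC box GGGCGG was in 22 of the 49 (44.9%), against 46.7% of all promoters, and TATAAA in 3 (6.12%), against 12.7%. Both strands were searched, and a match is a description of letters, not of binding.

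The obligate partners Rxra and Rxrg had the highest mean ratios among the 8 loops at receptor gene ends that were in all 4 libraries. In hCG, loops anchored inside a gene reached the same range, with ratios of 8.81 and 10.8 at Nr1h4 and 10.7 and 9.50 at Esrrb. Rxra was reached at its 3′ end, not at its start, by a loop of 210 to 215 kb from chr2:27550001-27555000. It had 22 and 26 contacts in hCG and 45 and 18 in PMSG, or observed over expected ratios of 9.62 and 8.85 in hCG and 9.85 and 11.6 in PMSG. At Rxrg, again at the 3′ end, a loop of 220 to 230 kb had 16 and 23 contacts in hCG and 32 and 19 in PMSG, with ratios of 9.87 and 9.40 in hCG and 7.72 and 8.96 in PMSG. A further Rxrg loop of 425 kb, at a ratio of 2.85, was in PMSG replicate 1 only. Among the 921 loops called in 5 kb bins in all 4 libraries, 87.1% had a lower mean ratio than Rxra and 75.9% a lower one than Rxrg. The third member, Rxrb, had no loop.

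The retinoic acid receptor genes Rara and Rarg had shorter loops of all 4 libraries, and Rarb had none. At Rara a loop of 35 to 50 kb spanned most or all of the gene, with an end of the replication licensing gene Cdc6 at its upstream anchor and, in hCG replicate 1, of the gap junction gene Gjd3 at its downstream one. Its ratios were 6.10 and 6.57 in hCG and 5.79 and 5.16 in PMSG. At Rarg a loop of 40 to 55 kb led to Csad, an enzyme of taurine synthesis, in 3 lists and close to it in hCG replicate 2, with ratios of 4.99 and 4.72 in hCG and 4.34 and 5.14 in PMSG. The end of Rarg was within 2.5 kb of this anchor in hCG replicate 1 only. A further Rarg loop of 100 kb, at a ratio of 1.91, was in PMSG replicate 1 only. Of the 921 loops in 5 kb bins, 12.5% had a lower mean ratio than the Rara loop of all 4 libraries and 2.61% a lower one than that of Rarg, so both stood low among loops of that bin size.

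Vdr, the vitamin D receptor, had 3 distinct loops. The one of all 4 libraries ran 80 to 100 kb upstream, with ratios of 2.68 and 3.20 in hCG and 2.59 and 4.27 in PMSG. In hCG replicate 1 it was called in 25 kb bins, and its far anchor held ends of the cartilage collagen gene Col2a1 and of Tmem106c. The other libraries were in 10 kb bins. The 3′ end of Vdr was within 2.5 kb of the near anchor in hCG replicate 1 and PMSG replicate 2 only. In hCG replicate 2 and PMSG replicate 1 that anchor lay inside the gene. Another loop, of 130 to 140 kb, led from the 3′ end of Vdr to the endoribonuclease gene Endou or close to it in both hCG libraries and in PMSG replicate 1. The third, of 50 kb, reached the Vdr start in hCG replicate 2.

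Nr1i3, which encodes the xenobiotic receptor CAR, had a loop of 105 to 110 kb to Cfap126, a gene of cilia, in all 4 libraries. Its ratios were 4.84 and 6.99 in hCG and 4.94 and 6.99 in PMSG, and hCG replicate 1 was called in 10 kb bins while the others were in 5 kb bins. The end of Nr1i3 lay 1.16 kb outside the anchor of this loop, so its place in the class rests on the 2.5 kb allowed. Ends of Apoa2 and Tomm40l were within 2.5 kb of the anchor as well, so the loop cannot be given to Nr1i3 alone. Further loops were 50 kb long, in hCG replicate 1 and PMSG replicate 1, and 35 kb long, in PMSG replicate 1. Nr2f1 encodes COUP-TFI, and its loop of 190 to 210 kb was in all lists, with ratios of 3.16 and 4.44 in hCG and 2.69 and 3.71 in PMSG. Replicate 1 of each group was called in 25 kb bins and replicate 2 of each in 10 kb bins. In PMSG replicate 2 the anchor stopped 8.97 kb short of the gene. A loop of 1150 kb was in hCG replicate 1.

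Thra, the thyroid hormone receptor α, and Nr1d1, the heme-binding clock repressor REV-ERBα, overlap by 1075 bases, and their loops cannot be told apart. Calls of 40 to 70 kb around them chained into 1 distinct loop of all 4 libraries, whose outer anchors in hCG replicate 2 held ends of the cytokine gene Csf3 and of the Mediator subunit gene Med24. The strongest call of each library had a ratio of 3.34 and 5.11 in hCG and 2.87 and 4.95 in PMSG. Those of replicate 1 of each group were in 10 kb bins and those of replicate 2 in 5 kb bins, so the ratios are not directly comparable. An end of Thra was within reach in hCG replicate 2 and PMSG replicate 2, and an end of Nr1d1 in hCG replicate 2.

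**Figure D4:**
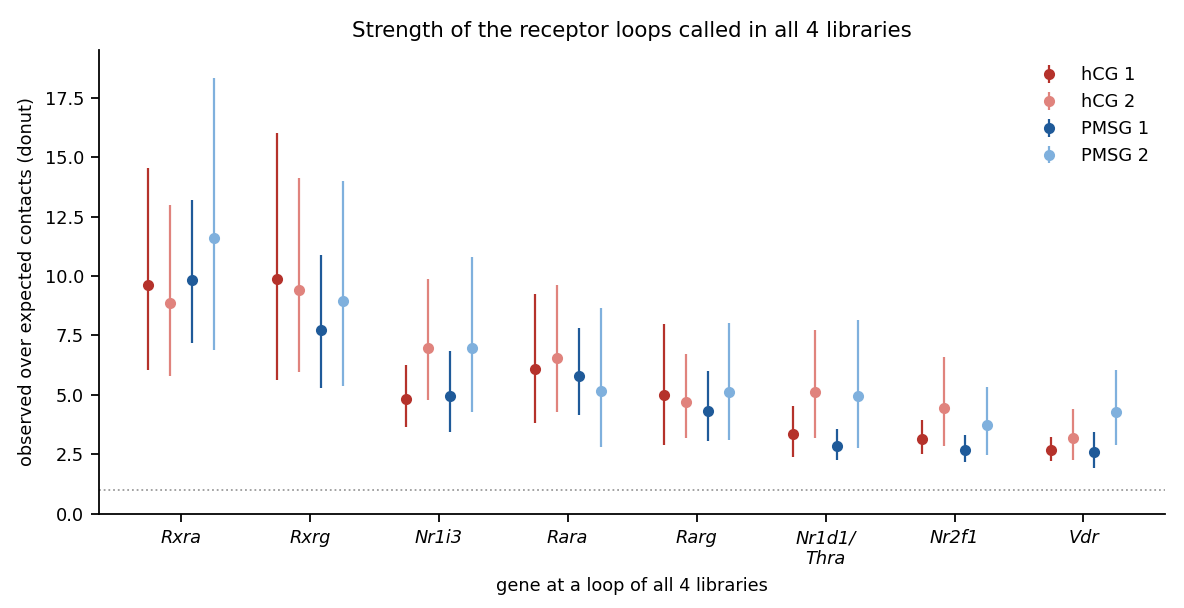
Observed over expected contacts (donut expectation) of the 8 receptor loops called in all 4 libraries, for each library, with 95% Poisson intervals of the observed count; the dotted line marks 1. Where a library had several calls the strongest is drawn. At Nr1i3, Nr1d1 and Thra, Nr2f1 and Vdr the bin size differs between libraries. The intervals of the hCG and PMSG libraries overlap at every loop, and Rxra and Rxrg stand highest.

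The strength of these loops was set against the group spread. Both hCG ratios were above both PMSG ratios at Rxrg and Rara, and both were below at Rxra. Among the 921 loops in 5 kb bins the first pattern held for 29.2% and the second for 5.86%. The test was edgeR's quasi-likelihood test on contact counts, with the donut expectation as offset and Benjamini-Hochberg adjustment over all loops tested. No receptor loop was among the 435 loops called at the identical pixel in all 4 lists, where 0 passed adjusted p of 0.05, 29 had an unadjusted p under 0.05, and DESeq2 called 0.

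When the pixel was free to differ within the same bin size, 1366 loops could be tested, among them 4 of receptors. Of the 1366, 0 passed (0%), 91 had an unadjusted p under 0.05, and DESeq2 called 0. The median log2 ratio of hCG over PMSG over all 1366 was 0.15. For Rxra, at a mean ratio of 9.23 ± 0.544 in hCG and 10.7 ± 1.23 in PMSG (SD, n = 2 each), the fitted log2 ratio was -0.16 (SE 0.26, 95% interval -0.67 to 0.34, edgeR adjusted p = 0.933). For Rxrg it was 0.24 (SE 0.28, -0.31 to 0.78, edgeR adjusted p = 0.910) and for Rara 0.18 (SE 0.26, -0.34 to 0.69, edgeR adjusted p = 0.930). Rarg was at 0.07 (SE 0.27, -0.45 to 0.59, edgeR adjusted p = 0.984). All 4 intervals include 0, which does not show that the groups are alike.

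The other looped receptors had calls in 1 library each, or in 2 libraries at places that did not match. Nr1d2, the second REV-ERB gene, had its 3′ end at the 550 kb Thrb loop of hCG replicate 2. Nr2c2, the orphan receptor TR4, had a loop of 80 kb that joined its start to its own end in PMSG replicate 1 (36 contacts against 12.5 expected). Nr2e1, the neural receptor TLX, had a loop of 50 kb in PMSG replicate 1 with a ratio of 2.20. Nr2e3, the photoreceptor receptor PNR, had loops of 250 kb in hCG replicate 1 and 225 kb in PMSG replicate 2, which lie 25 kb apart. Esrra, an estrogen-related receptor of mitochondrial gene control, had a loop of 100 kb in PMSG replicate 2, with 21 contacts against 5.02 expected.

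Spans and strengths of calls at receptors were set beside those of all gene calls. The median span was 157.5 kb in both hCG libraries, where all gene calls had 130 and 145 kb. In the PMSG libraries it was 170 and 110 kb, where all gene calls had 160 and 170 kb. Median observed over expected at receptors was 3.59 and 3.76 in hCG and 3.10 and 4.95 in PMSG, against 3.63 and 3.55 in hCG and 3.34 and 3.72 in PMSG for all gene calls. PMSG replicate 2, with 9 receptor calls, had the short span and the high ratio, and 22.2% of its receptor calls were in 25 kb bins, against 38.9% and 31.3% in the hCG libraries and 43.8% in PMSG replicate 1. Of all gene calls, 34.7% and 32.8% were in 25 kb bins in hCG and 28.9% and 40.7% in PMSG.

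For the 17 looped receptors of known strand, 6 had the start alone at anchors, 4 the end alone and 7 both. The start was thus at an anchor in 76.5%, against 69.5% of all looped genes of known strand. Rxra, Rxrg, Rarg and Nr1d2 were the receptors reached at the end alone. The start is here the outermost one of the gene model. A listed RefSeq start site inside Rarg, 102246500, was within 2.5 kb of an anchor in 1 and 1 calls in hCG and 2 and 0 in PMSG. The listed start sites of Rxra, Rxrg and Nr1d2 were at no anchor.

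Of the receptors, 15 had no gene end at an anchor: the oxysterol receptors Nr1h2 and Nr1h3 (LXRβ and LXRα), Nr1i2 (PXR), Nr2c1 (TR2), Nr2f6, Rarb, the retinoid-related orphan receptors Rora and Rorb, Rxrb, Ppara, Ppard, Hnf4a, Hnf4g, Esrrb and Esrrg. Their nearest anchor in any list lay at a median of 17.5 kb and at most 215 kb, for Esrrg. The threshold of 2.5 kb mattered for Ppard, whose start was 2.75 kb from an anchor in every library. That 80 kb loop encloses the gene at ratios of 7.88 and 7.41 in hCG and 6.55 and 7.96 in PMSG. Nr1h3 came within 2.83 kb in PMSG replicate 2, and just inside the threshold lay Nr2f2 at 1.95 kb and Rxra at 1.68 kb in PMSG replicate 1. Nr1i3 lay at 1.16 kb in hCG replicate 2 and PMSG replicate 2.

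Of these 15, 5 had a loop with an anchor inside the gene, away from its ends, and in Rora alone both anchors of a loop lay inside it. In Nr1h3 a loop of 75 to 85 kb to Spi1 was in every list, with ratios of 6.12 and 4.90 in hCG and 5.72 and 6.88 in PMSG, and both RefSeq start sites of Nr1h3, within the gene model, are within 2.5 kb of its anchor. Rora held a loop of 325 to 340 kb within its own body in all 4 lists, at ratios of 2.84 and 2.75 in hCG and 4.05 and 2.48 in PMSG. The Rora call of PMSG replicate 1 was in 10 kb bins and the others were in 25 kb bins. Hnf4a, of liver and kidney identity, had a 60 kb loop to Ttpal, a lipid transfer gene, at 4.17 and 4.68 in hCG and 3.13 and 3.53 in PMSG. In Esrrb a loop of 270 kb had ratios of 10.7 and 9.50 in hCG and 6.57 in both PMSG libraries. These rest on 13 and 16 contacts in hCG and 15 and 25 in PMSG. PMSG replicate 2 was called in 10 kb bins and the others in 5 kb bins, and the difference was not tested. Esrrg had 1 such loop, in PMSG replicate 2, and its anchor covers the fourth listed Esrrg start site, 187997827.

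**Figure D5:**
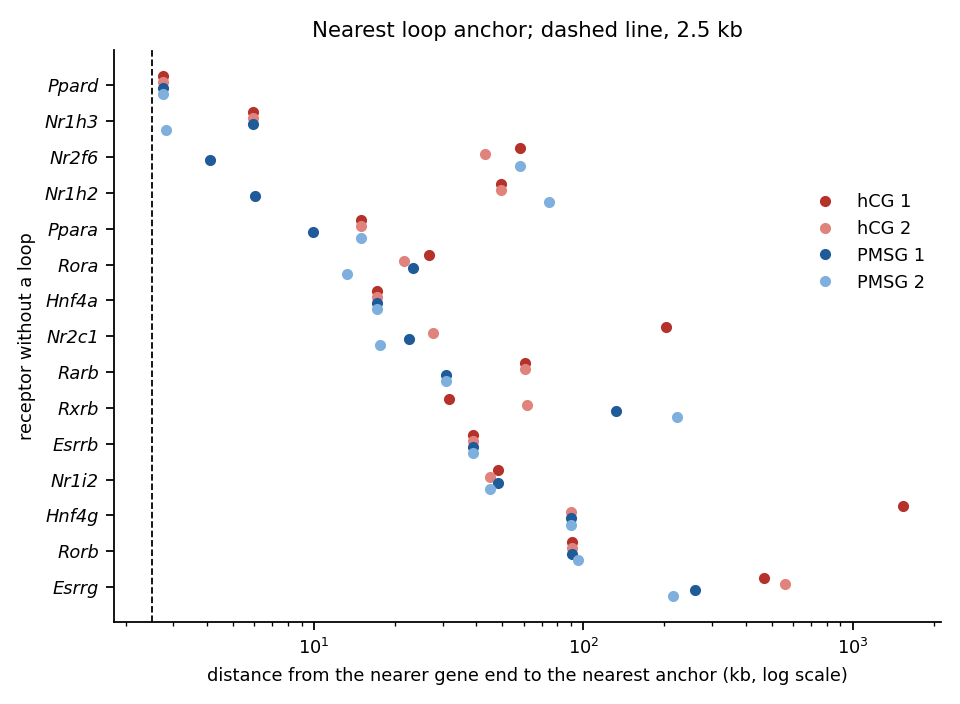
Distance in kb (log scale) from the nearer gene end to the nearest loop anchor for the 15 receptors without a loop, with 1 point per library and the dashed line at 2.5 kb. Ppard sits at 2.75 kb in all 4 libraries. By the nearest of its 4 points Esrrg is the farthest, at 215 kb, while the farthest single point is Hnf4g in hCG replicate 1, at 1540.2 kb.

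Genes that serve the receptors were counted in the same way. Of 64 coregulator, retinoid, thyroid and vitamin D, clock and lipid target genes, 40 had a loop (62.5%), against 42.2% of all protein-coding genes. Of the 40, 5 were at hCG-only loops (12.5%), against 8.31% of all looped genes, 2 at PMSG-only loops (5.00%), against 5.46%, and 16 at loops of all 4 libraries (40.0%), against 41.8%. The hCG-only genes were the coactivator acetyltransferase gene Ep300, the corepressor subunit gene Tbl1xr1, the clock repressors Bhlhe40 and Nfil3, and Pdk4, a PPAR target that restrains pyruvate use. Cry2, another clock repressor, was at a PMSG-only loop.

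The hCG-only loop of Ep300 spanned 60 kb, at 41 and 20 contacts, where 12.4 and 4.35 were expected. At Pdk4 the hCG-only loop was 50 kb long, and its 37 and 46 contacts compare with 14.1 and 16.5 expected. Bhlhe40 was joined over 240 and 230 kb with 34 and 18 contacts against 10.7 and 3.18. Ep300, Tbl1xr1 and Nfil3 were also at loops of all 4 libraries. Coregulators had loops for 13 of 18 genes (72.2%) and retinoid genes for 10 of 13 (76.9%). Clock genes had them for 8 of 14 (57.1%), lipid targets for 7 of 12 (58.3%), and thyroid and vitamin D genes for 2 of 7 (28.6%). The share of all protein-coding genes was 42.2%, and differences from it were not tested.

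Among the receptors left out of the set, 4 of 6 steroid receptor genes had loops, with Esr2, the estrogen receptor of granulosa cells, at an hCG-only loop of 125 kb. Of 8 genes of the NR4A, NR5A, NR0B and NR6A groups 2 had loops, with Nr5a2 at an hCG-only loop of 60 kb. These shares were 66.7% for the steroid receptors and 25% for the other groups, against 42.2% of all protein-coding genes. Of all looped genes 8.31% were at an hCG-only loop.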

How the data were processed

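Loop lists of 4 Micro-C libraries of mouse granulosa cells, 2 hCG and 2 PMSG, were used, grouped by title. Libraries were made with the Dovetail Micro-C kit, per the labels' protocols. BWA and Juicer were used with mm10, per the submitters' processing notes, and the lists were written by juicer_tools 1.22.01, per the file headers. The aligner's version and the caller's settings are not given in the labels or headers. The eCG interval is 46 h in the sample characteristics and 44 h in the treatment protocol. The deposited lists are merged HiCCUPS calls in bins of 5, 10 and 25 kb, 1 list per library. Each gives the observed contact count of a pixel, the expected contact signal from 4 neighbourhoods, and an FDR as a q-value for each, per the file headers, all under 0.1 (the highest was 0.0994). The authors' score for collapsed pixels was not used. A loop absent from a list is a site that the caller did not report, at an unknown contact number.

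Genes were 21631 RefSeq protein-coding genes on chromosomes 1 to 19 and X of GRCm38.p6, the assembly of mm10. Strand and start sites came from the RefSeq promoter table, which held 31 of the 33 receptors and not Thra or Hnf4g. No genome or exon annotation was used here, so anchors were not assigned to exons or introns. Matching calls of any list, both midpoints within 20 kb, were joined into 12920 distinct loops. A gene belonged to a loop if its end met the anchor in at least 1 list. Positions are counted from 1.

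The members, lists and tests were chosen with earlier results of these data known. Receptors at hCG-only or PMSG-only loops, the 6 with most distinct loops (ties included) and the 6 with the highest mean ratio at a loop of all 4 libraries were described in full. Other genes were named if at the far anchor of such loops or, from the lists, if at hCG-only or PMSG-only loops. Exceptions named after their values were seen are the far-anchor genes of the Nr1h3 and Hnf4a loops and of the 3-library Vdr loop, and genes that share the Nr1i3 anchor.

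Loop strength was tested with edgeR 4.0.16 in R 4.3.3 and, as an alternative, DESeq2 1.42.0. No receptor pixel was among the identical pixels, the table first intended, so receptor values come from the loops of the same bin size. Both steps were tested on simulated data. Expected signal relative to PMSG replicate 1 was 0.573 and 0.724 in hCG and 0.582 in PMSG replicate 2 (medians over 1366 loops). Python 3.11.15, pandas 2.3.3, numpy 2.4.6, scipy 1.17.1 and matplotlib 3.10.9 did the rest. A few genes at the loops described are not reported here.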

Additional observations from a re-analysis of the deposited data

How the results depend on the processing

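Nr1h4, Nr2f2 and Pparg were at hCG-only loops and Thrb at a PMSG-only loop under each other match distance (10 kb, 50 kb, overlapping anchors) and each other gene-end rule of the original set. With gene ends within 10 kb Rarg was at an hCG-only loop too, making 4 of 23 looped receptors and 5 loops (8.84% of all looped genes). Within 50 kb the hCG-only loops numbered 3, since the 875 kb loop of Nr2f2 joined the loops of all 4 libraries. They also numbered 3 with overlapping anchors and with a gene end at the anchor in 2 libraries, where the short Nr2f2 loop dropped out. Neither Nr2f2 loop stayed hCG-only under every setting. Pparg left its class with every FDR at most 0.01 and with lists of equal length, Thrb left with lists of equal length, and Nr1h4 left when only RefSeq start sites counted, an alternative chosen after seeing the data. The count of receptors at loops of all 4 libraries was 9, with 8 distinct loops (41.8% of all looped genes). It was 8, with 7 loops, for gene ends inside the anchor (38.4%), where Nr1i3 dropped out. It was 12 for matching within 50 kb (10 loops, 52.7% of all looped genes) and for gene ends within 10 kb (11 loops, 46.4%). It was 5, with 5 loops, for matching within 10 kb (32.6%) and for FDR at most 0.01 (25.9%). It was 3, with 3 loops, for overlapping anchors (18.9%) and for gene starts only (35.6%), and 4, with 4 loops, for RefSeq start sites (35.7%). A gene end at the anchor in 2 libraries left 11 receptors and 13 distinct loops. FDR at most 0.01 left 2 hCG-only loops, and equal lists left 0 receptors and 0 loops in the PMSG-only class.

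Leaving out 1 library leaves a class resting on 1 list: receptors at hCG-only loops then numbered 3 to 6 and their loops 4 to 9, receptors at PMSG-only loops 1 to 7 and their loops 1 to 9. The 6 came without either hCG library, with 8 loops without replicate 1 and 9 without replicate 2. PMSG-only receptors numbered 3 without PMSG replicate 1 and 7 without PMSG replicate 2. The shares over all looped genes moved too, to between 11.4% and 25.7% for hCG-only loops and between 10.2% and 25.1% for PMSG-only loops. Looped receptors then numbered 16 to 18, distinct loops 27 to 33, and receptors at loops of all 4 libraries 7 to 9, with 7 to 9 loops.

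The mean of the library medians of observed over expected was 3.67 in hCG and 4.02 in PMSG. In 5 kb bins it was 6.86 and 6.39, in 10 kb bins 3.51 and 3.38, in 25 kb bins 2.78 and 2.58, and with the horizontal expectation 2.98 and 3.17. Median span was 157.5 kb in hCG and 140 kb in PMSG. In 5 kb bins it was 103.75 and 107.5 kb, in 10 kb bins 80 and 82.5 kb, and in 25 kb bins 400 and 331.25 kb. Without a library the PMSG values ranged from 110 to 170 kb and from 3.10 to 4.95, and the hCG ratio from 3.59 to 3.76, with the span at 157.5 kb.

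The 435 pixels held no receptor loop, so receptor loops were tested on the 1366 loops, where none of the 4 was called by edgeR in the alternatives run there. The minimum of 20 contacts was applied to the 435 pixels only. With the replicate block 0 of the 435 pixels and 0 of the 1366 loops were called. Libraries of the same number did not deviate together (correlation -0.01 over the 1366 loops), so the block has no stated basis. Over all loops 1 pixel was called with the largest of 4 expectations, and 0 to 2 without a library. On the 1366 loops, in alternatives added later, 3 were called with the largest expectation and 0 to 12 without a library, with 12 without PMSG replicate 2. Adjusted p of the 4 receptor loops was 0.731 or higher in these. The log2 ratio at Rxra lay between -0.47 and -0.10, and that at Rarg changed sign, between -0.09 and 0.15. At a median of 32 to 36 contacts per pixel, differences within the intervals given cannot be detected.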
